A study of Homo sapiens with 18 samples.

Results

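The genes described here are 10 members of the TGF-beta superfamily pathway, chosen by symbol: the ligands TGFB1, TGFB2, BMP3, BMP4 and INHBA, the receptors TGFBR1, TGFBR2 and TGFBR3, and the signal proteins SMAD3 and SMAD7. They are 10 of the 36601 gene IDs counted, and each symbol matched 1 ID. RNA was sequenced from 3 human cholangiocarcinoma (bile duct cancer) cell lines: HuCCT1, labelled as bile duct, YSCCC, labelled as liver, and KKU-100, labelled as biliary tract. Each line carried, stably and by lentivirus, either a control hairpin (shControl, genotype labelled WT) or a hairpin against RNF213, a large cytosolic ubiquitin ligase (shRNF213#2, genotype labelled RNF213 knockdown), with 3 biological replicates in each of the 6 groups. HuCCT1 and YSCCC grew in RPMI-1640 and KKU-100 in Ham's F12, all with 10% serum, so line and medium differ together. The RNA data hold 1 RNF213 hairpin, number 2, so effects of the knockdown and of that hairpin sequence cannot be told apart, and each line stands for 1 tumour.

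TGF-beta ligands are secreted in a latent form and, once released, bind the type II receptor TGFBR2, which phosphorylates the type I receptor TGFBR1, which in turn phosphorylates SMAD2 and SMAD3. TGFBR3, also called betaglycan, is a co-receptor without kinase activity that presents ligand, TGF-beta 2 above all, to TGFBR2. BMPs and activins use related receptors, the BMPs acting mainly through SMAD1, SMAD5 and SMAD8, while SMAD7 is a feedback inhibitor induced by the pathway. In bile duct cancer TGF-beta is known both for restraining growth of epithelial cells and for invasion and the scar-like stroma.

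Library totals ran from 21056732 to 25502097 counts. Levels are given as CPM, counts scaled to library size with TMM over all 18 libraries, or, between genes, as the deposited TPM, which divides by transcript length. In every one of the 9 pairs RNF213 itself was lower with its hairpin, with a mean log2 difference of -1.01 (SE 0.11, adjusted p = 0.000347, edgeR quasi-likelihood test). Within a line it passed the same test in YSCCC (-1.16) and KKU-100 (-0.97), and in HuCCT1 it was -0.89 with adjusted p = 0.136. The KKU-100 value missed the threshold without replicate 1 (adjusted p = 0.0663) or 3 (0.251), and the HuCCT1 value passed without any 1 replicate, at log2 values from -1.09 to -0.56. Of the biliary markers, KRT19 and EPCAM averaged 1682 and 337 CPM in the HuCCT1 controls and 809 and 271 CPM in the YSCCC controls. In the KKU-100 controls KRT19 averaged 0.0773 CPM and EPCAM had 0 counts, while KRT8 (577 CPM), KRT18 (315 CPM), KRT7 (139 CPM) and SOX9 (256 CPM) were present. A pair of replicates stood apart in both arms. In HuCCT1 replicate 2 the summed level of 12 interferon-stimulated genes was 6439.5 and 6233 CPM, against 475 to 919 CPM in the other libraries of that line. In YSCCC replicate 3 the sum of 12 endoplasmic reticulum stress and ATF4 target genes was 5291 and 4098 CPM, against 1349 to 1544 CPM. Members that passed in those lines are given with and without them.

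RefSeq (GRCh38.p14) lists promoter windows for 9 of the 10 members, and 4 of them have a single listed start. The 250 bases before that start are printed below for these 4, chosen only because they have a single listed start. Among them TGFB1 and TGFBR3 moved one way in every pair, and TGFB2 and INHBA are ligands with wide differences between the lines. They are written 5′ to 3′ on the gene's strand. Capitals mark matches, on either strand, to a TATA box (TATAAA), a GC box (GGGCGG or its reverse complement CCGCCC), a SMAD box (CAGAC) or an AP-1 site (TGANTCA). The windows are chr19:41353923-41354172 on the minus strand for TGFB1, chr1:91886152-91886401 on the minus strand for TGFBR3, chr1:218345086-218345335 on the plus strand for TGFB2 and chr7:41703091-41703340 on the minus strand for INHBA. The TGFB1 and TGFB2 windows adjoin the upstream ends of the counted genes. The counted spans of TGFBR3 (to 91906335) and INHBA (to 41705834) extend further upstream than their windows. Starts lying further upstream were not examined.
TGFB1: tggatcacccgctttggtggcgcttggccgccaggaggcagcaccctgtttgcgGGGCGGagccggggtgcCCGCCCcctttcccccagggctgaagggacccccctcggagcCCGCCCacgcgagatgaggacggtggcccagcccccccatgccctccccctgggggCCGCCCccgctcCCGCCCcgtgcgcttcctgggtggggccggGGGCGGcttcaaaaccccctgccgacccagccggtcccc
TGFBR3: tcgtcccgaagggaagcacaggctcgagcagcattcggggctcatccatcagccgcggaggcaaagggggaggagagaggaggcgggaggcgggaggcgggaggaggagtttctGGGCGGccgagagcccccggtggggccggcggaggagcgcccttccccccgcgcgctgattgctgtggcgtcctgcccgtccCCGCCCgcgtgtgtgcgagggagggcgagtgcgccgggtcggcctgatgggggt
TGFB2: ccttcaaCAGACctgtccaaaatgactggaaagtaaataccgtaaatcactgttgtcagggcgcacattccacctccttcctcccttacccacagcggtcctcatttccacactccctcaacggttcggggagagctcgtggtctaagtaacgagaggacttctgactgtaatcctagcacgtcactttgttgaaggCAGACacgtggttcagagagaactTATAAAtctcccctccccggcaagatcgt
INHBA: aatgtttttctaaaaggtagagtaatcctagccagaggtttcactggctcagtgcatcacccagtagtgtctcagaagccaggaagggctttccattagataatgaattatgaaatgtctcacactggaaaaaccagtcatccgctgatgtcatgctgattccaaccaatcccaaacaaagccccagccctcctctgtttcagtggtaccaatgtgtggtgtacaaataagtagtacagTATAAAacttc
The TGFB1 window is 76.8% G and C and holds 6 GC boxes and no TATA box. The TGFBR3 window is 73.6% G and C and holds 2 GC boxes and no TATA box. The TGFB2 window is 50.4% G and C, with 1 TATA box 29 to 24 bases before the start and 2 SMAD boxes. The INHBA window is 42.8% G and C and has 1 TATA box match, 11 to 6 bases before the listed start. None of the 4 windows holds the AP-1 letters. Of 35116 RefSeq windows of the same 250 bases, 42.6% hold a GC box, 10.7% a TATA box, 38.0% a SMAD box and 6.57% an AP-1 site, and the median G and C share is 58%. These are matches of letters only, and the data hold no measurement of binding.

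The control-hairpin libraries were compared first, to show the RNA level of each of these genes in each line. HuCCT1 held the highest levels of the ligands BMP4 and INHBA and of SMAD3 and SMAD7. YSCCC was the line with BMP3 and with the least TGFB1 and TGFB2. The TGFB1 and TGFB2 ranges of KKU-100 overlapped those of HuCCT1 and neither difference passed, which does not show equal levels. KKU-100 had the highest TGFBR3 values, although its difference from YSCCC did not pass. All 10 members passed the test between YSCCC and HuCCT1 (3 higher and 7 lower in YSCCC), where 58.4% of all genes tested did. Between KKU-100 and HuCCT1, 6 passed (1 higher and 5 lower in KKU-100), against 57.4% of all genes. BMP3, among the 5 lower, had few counts in both of these lines and was tested only through its YSCCC counts. Between YSCCC and KKU-100, 5 passed (3 higher and 2 lower in YSCCC), against 60.7%. The lines are thus far apart over most genes, the 3 comparisons share their control libraries, and in bulk RNA fewer expressing cells and less RNA per cell cannot be told apart.

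Among the ligands, TGFB1 (ENSG00000105329, chr19:41301587-41353922 on the minus strand), the most widely expressed TGF-beta, stood at 72.7, 59.4 and 82.3 CPM in the HuCCT1 controls, 13.8, 11.8 and 13.5 CPM in YSCCC and 54.6, 93.9 and 71.6 CPM in KKU-100. YSCCC lay below both other lines in every library, 5.48-fold below HuCCT1 (adjusted p = 1.13e-05) and 5.63-fold below KKU-100 (adjusted p = 7.67e-06). HuCCT1 and KKU-100 overlapped (log2 difference 0.043, SE 0.21, adjusted p = 0.882). Of the 3238 exonic bases of TGFB1, 215 are shared with HNRNPUL1 on the opposite strand. Whether the counting used strand is not stated, so reads from the shared stretch could belong to either gene. HNRNPUL1 was also lower in YSCCC, by log2 -0.78 against HuCCT1 and -1.10 against KKU-100, less than the -2.47 and -2.51 of TGFB1.

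TGFB2, the isoform that depends most on betaglycan, was at 71.3, 93.2 and 124 CPM in HuCCT1 and 92.4, 37.1 and 59.5 CPM in KKU-100. The YSCCC controls had 4, 7 and 14 raw counts, or 0.311 ± 0.174 CPM (SD, n = 3). The YSCCC mean was 309-fold below HuCCT1 (adjusted p = 1.18e-06) and 202-fold below KKU-100 (adjusted p = 1.07e-06). The fitted difference from KKU-100 moved from -7.64 to -6.95 on the log2 scale without replicate 1. HuCCT1 and KKU-100 overlapped and did not pass (log2 -0.60, SE 0.35, adjusted p = 0.163). Without replicate 1, the highest KKU-100 library, that difference was -1.17 with adjusted p = 0.0219.

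INHBA (ENSG00000122641, chr7:41667168-41705834 on the minus strand), the beta A subunit of activin, was far higher in HuCCT1 than in both other lines. Its controls stood at 527, 365 and 310.1 CPM in HuCCT1, 7.63, 6.13 and 0.935 CPM in YSCCC and 15.03, 11.1 and 2.90 CPM in KKU-100. HuCCT1 was 81.8-fold above YSCCC (adjusted p = 9.25e-05) and 41.4-fold above KKU-100 (adjusted p = 0.000188). Replicate 3 was the lowest library in all 3 lines, and the other lines overlapped (YSCCC minus KKU-100: log2 -1.004, SE 0.67, adjusted p = 0.217). Without replicate 3 the latter difference passed, at -0.95 and adjusted p = 0.0198.

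BMP4 (ENSG00000125378, chr14:53949736-53958761 on the minus strand), a BMP that signals through the BMP type I receptors, was at 48.6, 66.3 and 82.3 CPM in HuCCT1, 2.71, 2.47 and 2.48 CPM in YSCCC and 0.462, 2.30 and 1.52 CPM in KKU-100. HuCCT1 was 25.7-fold above YSCCC (adjusted p = 1.32e-05) and 45.99-fold above KKU-100 (adjusted p = 5.31e-06). YSCCC and KKU-100 did not pass against each other (log2 0.81, SE 0.42, adjusted p = 0.121). BMP3 (ENSG00000152785, chr4:81030708-81057632 on the plus strand), an unusual BMP that can act against the others, was instead highest in YSCCC. The YSCCC controls had 15.99, 20.7 and 8.13 CPM, while HuCCT1 had 15, 9 and 11 raw counts and KKU-100 1, 4 and 0. YSCCC was 30.1-fold above HuCCT1 (adjusted p = 4.63e-05) and, in the fit, 7.45 on the log2 scale above KKU-100 (adjusted p = 9.80e-06). Without replicate 2, the KKU-100 library with 4 counts, the latter was 8.66. In KKU-100 and HuCCT1 the BMP3 counts were low, and the gene entered the control fit through its YSCCC libraries. The log2 difference of KKU-100 minus HuCCT1 was -2.57 with all libraries, -4.16 without replicate 2 and -2.07 without replicate 3. No conclusion is drawn from its call (adjusted p = 0.0136, lost without replicate 1 at 0.13).

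Among the receptors, TGFBR3 (ENSG00000069702, chr1:91680343-91906335 on the minus strand) had 13.5, 27.97 and 19.02 CPM in HuCCT1, 90.5, 76.4 and 19.02 CPM in YSCCC and 151, 126 and 112 CPM in KKU-100. All KKU-100 libraries lay above all others. YSCCC replicate 3, from the replicate with high endoplasmic reticulum stress genes, lay within the HuCCT1 range while the other YSCCC controls lay well above it. KKU-100 was 6.42-fold above HuCCT1 (adjusted p = 0.000924) and 2.09-fold above YSCCC, which did not pass (log2 -1.09, SE 0.47, adjusted p = 0.065). With the replicate number as a block the latter difference passed (-1.24, adjusted p = 0.0384), as it did with no low-count filter (adjusted p = 0.0432). YSCCC was 3.07-fold above HuCCT1 (adjusted p = 0.0141), lost without replicate 1 (log2 1.02, adjusted p = 0.182) or replicate 2 (1.76, 0.0505). Without replicate 3 it was 2.001 with adjusted p = 0.00247.

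TGFBR1 (ENSG00000106799, chr9:99104038-99154192 on the plus strand), the type I kinase, was at 43.1, 49.96 and 52.7 CPM in HuCCT1, 158, 139 and 69.9 CPM in YSCCC and 54.3, 55.7 and 70.4 CPM in KKU-100. YSCCC was the highest line, 2.52-fold above HuCCT1 (adjusted p = 0.00185) and 2.03-fold above KKU-100 (adjusted p = 0.00812), although its replicate 3 fell just under the top KKU-100 library. Against KKU-100 it no longer passed without replicate 1 (adjusted p = 0.111) or 2 (0.0939), and without replicate 3 the log2 difference was 1.41 (adjusted p = 0.000547). HuCCT1 and KKU-100 did not pass (log2 0.32, SE 0.27, adjusted p = 0.328).

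TGFBR2 (ENSG00000163513, chr3:30606502-30694142 on the plus strand), the type II kinase that binds ligand first, was at 307, 306 and 353 CPM in HuCCT1, 152, 165 and 55.4 CPM in YSCCC and 157, 244 and 210.4 CPM in KKU-100. Every HuCCT1 control lay above every control of the other lines. Only the 2.59-fold gap between HuCCT1 and YSCCC passed (adjusted p = 0.00597), and it was -0.96 on the log2 scale without replicate 3 (adjusted p = 0.0109). KKU-100 lay between them and passed against neither HuCCT1 (log2 -0.65, SE 0.34, adjusted p = 0.125) nor YSCCC (adjusted p = 0.086).

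SMAD3 (ENSG00000166949, chr15:67063763-67195169 on the plus strand), the signal carrier of TGF-beta and activin, had 399, 406 and 389 CPM in HuCCT1, 187, 185 and 165 CPM in YSCCC and 96.7, 98.7 and 115 CPM in KKU-100. The lines did not overlap, and all 3 steps passed. HuCCT1 was 2.22-fold above YSCCC (adjusted p = 7.67e-05), and YSCCC 1.73-fold above KKU-100 (adjusted p = 0.000883). SMAD7 (ENSG00000101665, chr18:48919853-48952052 on the minus strand), the feedback inhibitor, was at 28.3, 38.3 and 33.7 CPM in HuCCT1, 6.97, 11.5 and 6.04 CPM in YSCCC and 3.28, 8.31 and 7.61 CPM in KKU-100. HuCCT1 was 4.10-fold above YSCCC (adjusted p = 0.000747) and 5.22-fold above KKU-100 (adjusted p = 0.000313). The other lines overlapped (adjusted p = 0.44).

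**Figure D1:**
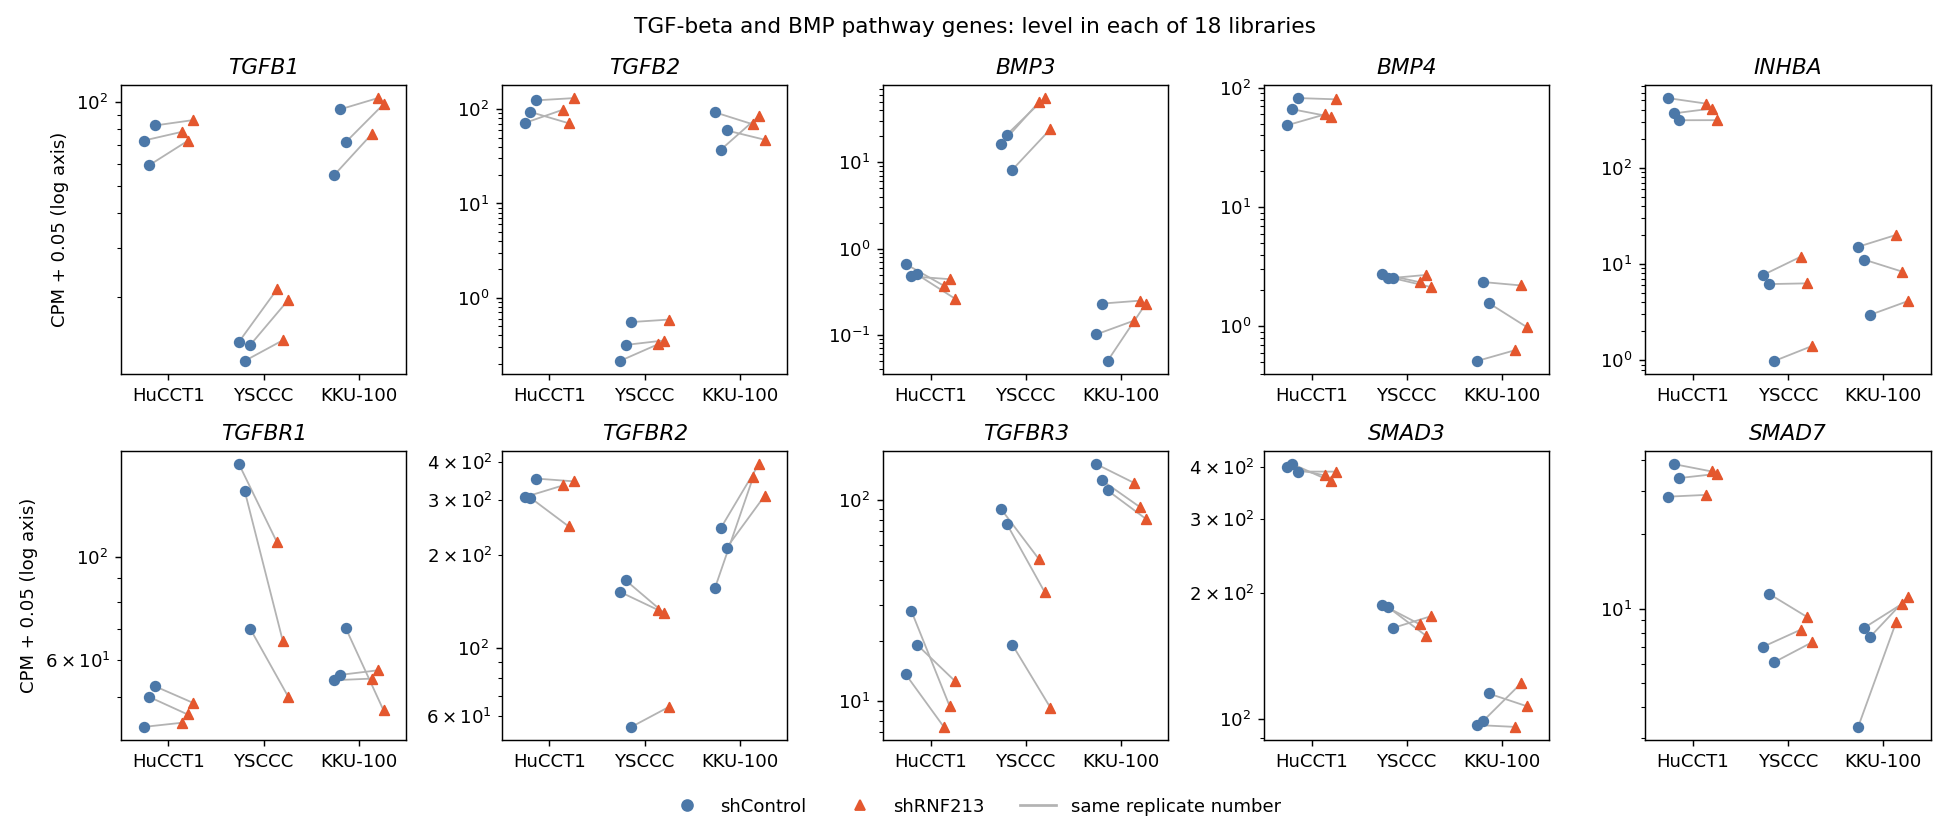
Level of each of the 10 genes in CPM (log axis) in every library, by line, with control-hairpin and RNF213-hairpin libraries side by side. The gaps between lines, such as INHBA in HuCCT1 against the other lines, are wider than most gaps between the arms of a line.

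Within a line, genes were ordered by deposited TPM of the controls (mean ± SD, n = 3). HuCCT1 was led by INHBA (147 ± 45.1 TPM), TGFBR2 (145 ± 15.9) and SMAD3 (138 ± 4.64), whose ranges overlapped. BMP4 followed at 76.3 ± 20.9 TPM, then TGFB1 at 55.2 ± 10.8 and TGFB2 at 48.99 ± 11.4 TPM. TGFBR3 (7.13 ± 2.57 TPM) was the lowest member above BMP3 there. In YSCCC the leaders were SMAD3 (69.6 ± 2.28 TPM), TGFBR2 (63.9 ± 28.7) and TGFBR1 (46.5 ± 15.7), so that by mean the receptors and SMAD3 stood above every ligand, with TGFB1 the top ligand at 11.9 ± 1.40 TPM. Each neighbour in that YSCCC order down to TGFB1 overlapped the next, and BMP3, SMAD7 and BMP4 formed a lower run of overlapping ranges. In KKU-100 TGFBR2 led at 95.1 ± 21.1 TPM, ahead of TGFB1 (57.97 ± 15.8), TGFBR3 (47.1 ± 8.40), SMAD3 (35.9 ± 3.60), TGFB2 (31.5 ± 12.6) and TGFBR1 (20.4 ± 3.78), each overlapping the next. INHBA, SMAD7 and BMP4 were each under 4 TPM on average in KKU-100. By mean, TGFBR2 was thus among the leading pair of members in all 3 lines, while INHBA was first in HuCCT1 and at rank 9 of 10 in YSCCC. The INHBA lead in HuCCT1 came from replicate 1 (199 TPM). In replicates 2 and 3 INHBA (125 and 117 TPM) lay below TGFBR2 (132 and 163) and SMAD3 (133 and 140).

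**Figure D2:**
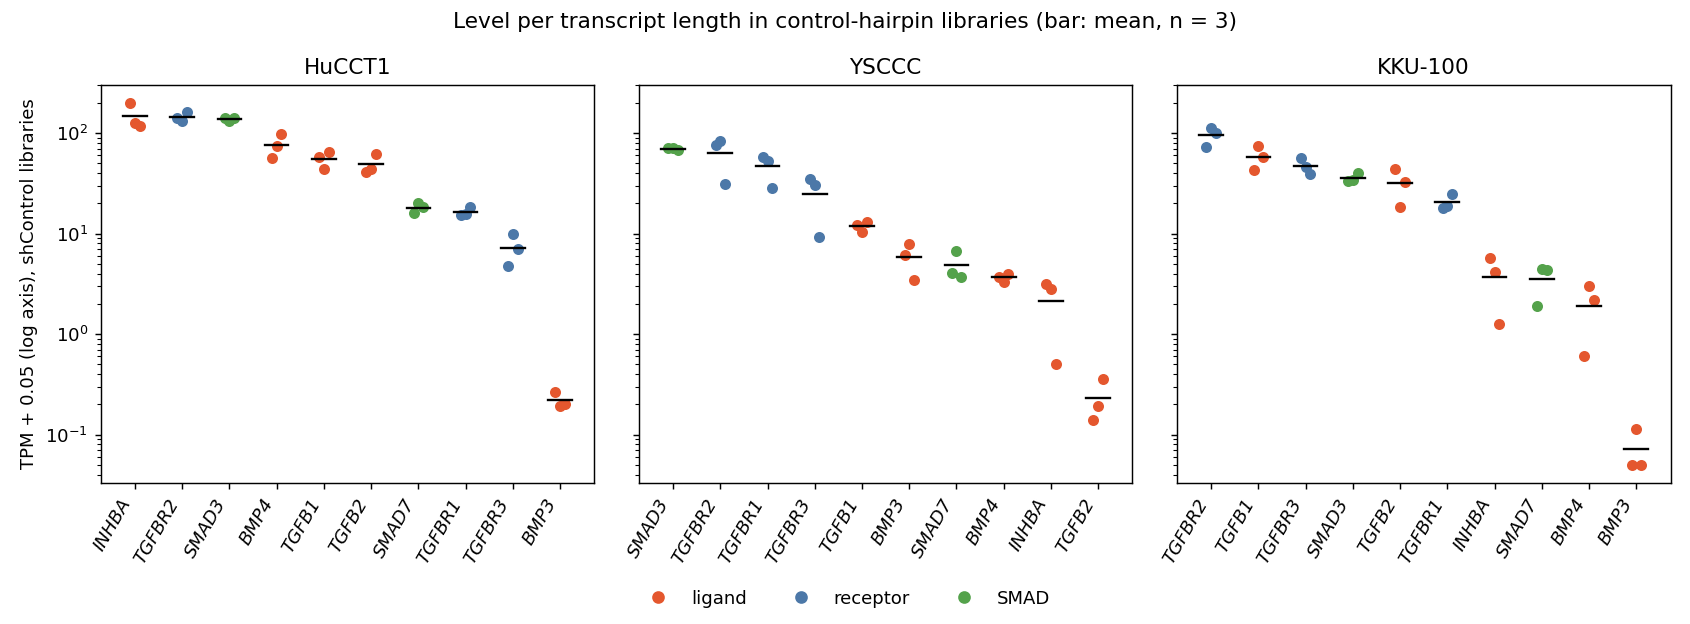
Deposited TPM plus 0.05 (log axis) of the 10 genes in the 3 control libraries of each line, ordered by mean, with ligands, receptors and SMADs in separate colours and bars at the means. By mean, INHBA is first in HuCCT1, where its range overlaps those of TGFBR2 and SMAD3. It is at rank 9 in YSCCC, where the 3 receptors take ranks 2 to 4.

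The RNF213 hairpin was then compared with the control hairpin inside each line, with libraries paired by replicate number. The clearest changes were in YSCCC, where TGFBR3 and TGFBR1 fell and BMP3 and TGFB1 rose. TGFBR3 was lower in all 9 pairs over the 3 lines and TGFB1 was higher in all 9. In YSCCC 4 of the 9 members tested passed, 2 in each direction, where 8.25% of all genes did. In HuCCT1 0 of 9 passed with edgeR, against 0.14% of all genes. At an unadjusted p under 0.05 the HuCCT1 count was 1, and DESeq2 also called 1, TGFBR3 in both cases. In KKU-100 0 of 9 passed, against 0.443% of all genes. There 4 members had an unadjusted p under 0.05, and DESeq2 called 1, TGFBR2. TGFB2 in YSCCC and BMP3 in the other lines were left out of the tests for low counts. Without the replicate block no member passed in any line, and 0 of all genes tested passed in YSCCC.

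TGFBR3, the co-receptor, fell in YSCCC and in the mean over lines. In YSCCC it went from 90.5, 76.4 and 19.02 CPM in control replicates 1, 2 and 3 to 50.8, 34.8 and 9.22 CPM with the RNF213 hairpin. The arms overlapped because replicate 3 was low in both, but each replicate fell by a like factor (pair log2 ratios -0.83, -1.13 and -1.04). The fitted change was 2.003-fold (log2 -1.002, SE 0.11, adjusted p = 0.00023), and without replicate 3 it was -0.98 (adjusted p = 1.18e-07). In HuCCT1 TGFBR3 went from 13.5, 27.97 and 19.02 to 7.39, 9.41 and 12.5 CPM, and every hairpin library was below every control. The HuCCT1 change was as large (log2 -1.02, SE 0.18, adjusted p = 0.0759) but missed the threshold. Without replicate 2, the interferon-high pair and the widest drop, it was -0.74 and passed (adjusted p = 0.00931), as it did without replicate 3 (-1.24, 8.10e-07). Without replicate 1 it did not pass (-1.08, adjusted p = 0.0697), so size and call moved with the pair left out. In KKU-100 it went from 151, 126 and 112 to 122, 92.4 and 80.9 CPM (log2 -0.42, SE 0.11, adjusted p = 0.138). The KKU-100 arms overlapped, and the values were lower in 3 of 3 pairs.

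The mean effect over the 3 lines, from 1 fit of all 18 libraries with 9 pair terms, was -0.81 for TGFBR3 (SE 0.082, adjusted p = 0.00023), a 1.76-fold drop. In all, 3 of 10 members passed for the mean effect, TGFBR3 and TGFBR1 lower and TGFB1 higher, against 2.9% of all genes. TGFBR3 kept its call without any 1 replicate number, at log2 values from -0.87 to -0.70. Being lower in 9 of 9 pairs held for 1.13% of the genes tested and being higher in 9 of 9 pairs for 1.12%. The 9 TGFBR3 ratios averaged -0.81 (SD 0.40) and ran from -1.57 to -0.31. RNF213 ratios in the same pairs ran from -1.57 to -0.50.

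**Figure D3:**
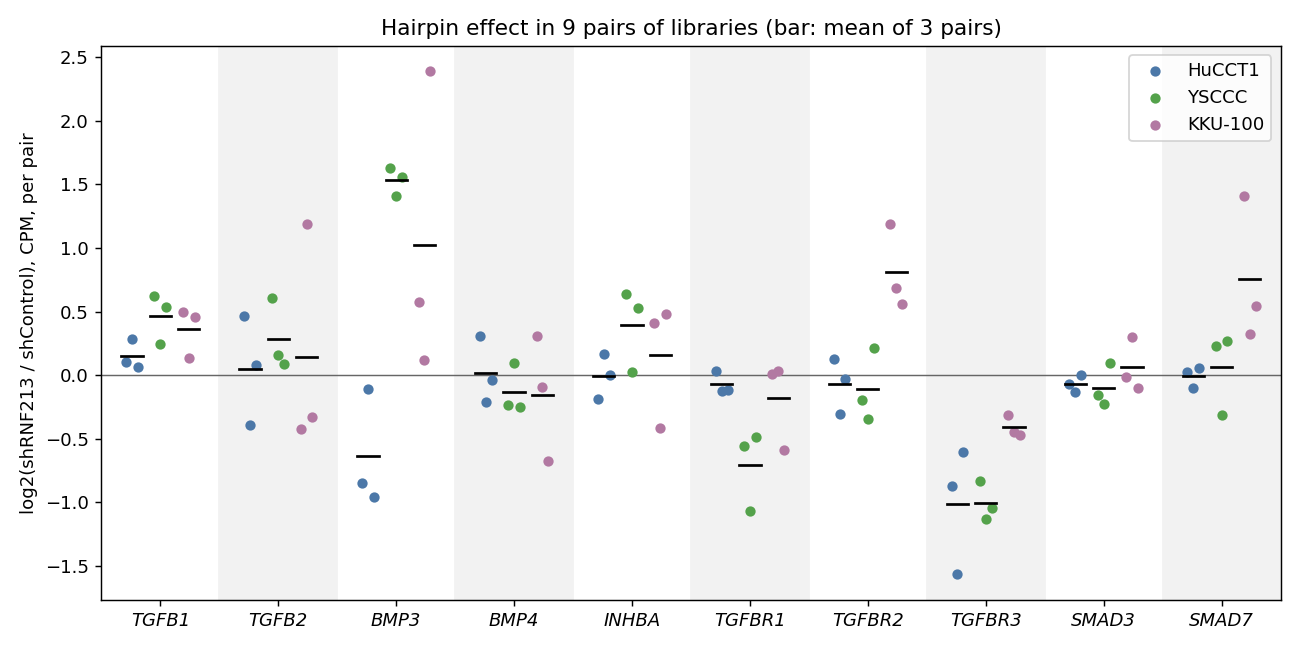
Log2 ratio of RNF213-hairpin over control-hairpin CPM for each gene in each of the 9 pairs, coloured by line, with 0 as no difference. TGFBR3 lies below 0 and TGFB1 above 0 in all 9 pairs, BMP3 is far above 0 in the 3 YSCCC pairs, and TGFBR2 is above 0 in the 3 KKU-100 pairs.

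TGFBR1 fell in YSCCC, from 158, 139 and 69.9 to 107, 66.05 and 49.96 CPM (log2 -0.71, SE 0.11, adjusted p = 0.00278). The arms overlapped through the low replicate 3, and each pair fell (log2 -0.56, -1.07 and -0.48). Without replicate 3 the change was -0.81 (adjusted p = 4.58e-06), and without replicate 2, the widest drop, -0.54 (0.027). In HuCCT1 it went from 43.1, 49.96 and 52.7 to 43.99, 45.8 and 48.5 CPM (log2 -0.076, SE 0.084, adjusted p = 0.753) and in KKU-100 from 54.3, 55.7 and 70.4 to 54.7, 57.02 and 46.7 CPM (log2 -0.20, SE 0.15, adjusted p = 0.56). The arms overlapped in both, and neither passed. The mean over lines passed narrowly (log2 -0.33, SE 0.078, adjusted p = 0.0399) and was lost without replicate number 1 (adjusted p = 0.191), 2 (0.0996) or 3 (0.139).

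TGFBR2 was the one member whose response passed a test of the difference between lines. In KKU-100 it went from 157, 244 and 210.4 to 357, 393 and 310.0 CPM, with every hairpin library above every control. The change there was 1.73-fold (log2 0.79, SE 0.14, adjusted p = 0.0672), outside the threshold in the fit of this line alone. It passed without replicate 2 (0.83, adjusted p = 0.0316) and did not pass without replicate 1 (0.63, 0.125) or 3 (0.93, 0.184). In YSCCC it went from 152, 165 and 55.4 to 133, 129.9 and 64.5 CPM (log2 -0.11, SE 0.11, adjusted p = 0.591) and in HuCCT1 from 307, 306 and 353 to 335, 247 and 345 CPM (log2 -0.075, SE 0.097, adjusted p = 0.788). The arms overlapped in both of these lines. The test of the difference itself, over all 18 libraries, passed between YSCCC and KKU-100 (log2 -0.91, SE 0.19, adjusted p = 0.0229). It was 1 of 10 members to do so, against 2.63% of all genes. Leaving out replicate 1 ended the call (-0.68, adjusted p = 0.243), as did leaving out replicate 2 (-0.84, 0.0915). Without replicate 3, the low YSCCC replicate, the difference was -1.20 (adjusted p = 0.0326).

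In the other comparisons of responses, 0 of 10 members passed with edgeR between KKU-100 and HuCCT1 (0.235% of all genes) and 0 of 10 between YSCCC and HuCCT1 (0.047%). At an unadjusted p under 0.05 the counts were 4 and 3, and DESeq2 called 1 each. The DESeq2 calls were TGFBR2 (KKU-100 minus HuCCT1: edgeR log2 0.87, SE 0.19, adjusted p = 0.0756) and BMP3 (YSCCC minus HuCCT1: edgeR log2 2.25, SE 0.41, adjusted p = 0.0764). BMP3 had 15 or fewer counts in each HuCCT1 library and entered that fit through YSCCC, so no conclusion is drawn from its difference. The TGFBR3 drop in KKU-100 was smaller than in HuCCT1 by 0.60 (SE 0.20), which did not pass (adjusted p = 0.239). Missing the threshold does not show that the drops were equal.

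Among the ligands, BMP3 gave the largest change of any member tested. In YSCCC it rose from 15.99, 20.7 and 8.13 to 49.7, 55.1 and 24.1 CPM, and every hairpin library lay above every control. The rise was 2.90-fold (log2 1.54, SE 0.11, adjusted p = 2.76e-05) and close to equal in the 3 pairs (log2 1.63, 1.41 and 1.56). Without replicate 3 it was 1.52 (adjusted p = 1.64e-11). In HuCCT1 the raw BMP3 counts were 15, 9 and 11 with the control and 8, 8 and 5 with the RNF213 hairpin, and in KKU-100 1, 4 and 0 and 2, 5 and 4. These counts are too low for a test inside either line.

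TGFB1 was higher with the hairpin in every pair, by small amounts. In YSCCC it went from 13.8, 11.8 and 13.5 to 21.3, 13.996 and 19.6 CPM, with no overlap, a 1.39-fold rise (log2 0.47, SE 0.13, adjusted p = 0.0433). That call sat close to the threshold and was lost without replicate 1 (0.39, adjusted p = 0.347), 2 (0.57, 0.0634) or 3 (0.44, 0.0693) and with DESeq2 (0.054). In KKU-100 TGFB1 went from 54.6, 93.9 and 71.6 to 76.9, 103 and 98.1 CPM (log2 0.34, SE 0.11, adjusted p = 0.216) and in HuCCT1 from 72.7, 59.4 and 82.3 to 78.1, 72.4 and 86.02 CPM (log2 0.14, SE 0.083, adjusted p = 0.545). Arms overlapped in both lines. The mean over lines was 1.25-fold (log2 0.32, SE 0.061, adjusted p = 0.0118), lost without replicate number 1 (adjusted p = 0.215) or 3 (0.111). HNRNPUL1, the gene that overlaps TGFB1 on the other strand, had log2 differences of 0.0062 in YSCCC, 0.19 in KKU-100 and -0.0024 in HuCCT1, and none passed (adjusted p = 0.977, 0.478 and 0.994).

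The other ligands passed in no line. TGFB2 had no common direction. In HuCCT1 it went from 71.3, 93.2 and 124 to 98.5, 70.9 and 131 CPM (log2 0.048, SE 0.14, adjusted p = 0.91) and in KKU-100 from 92.4, 37.1 and 59.5 to 68.8, 84.4 and 47.4 CPM (log2 0.11, SE 0.30, adjusted p = 0.886). The KKU-100 pairs went apart, with log2 ratios of -0.43, 1.19 and -0.33. In YSCCC its raw counts were 4, 7 and 14 and 7, 8 and 15. BMP4 stood at 59.98, 57.4 and 80.3 CPM in HuCCT1 with the hairpin (log2 0.015, SE 0.10, adjusted p = 0.966), and its differences were -0.13 (SE 0.22) in YSCCC and -0.22 (SE 0.33) in KKU-100. INHBA stood at 462, 410.0 and 311 CPM in HuCCT1 with the hairpin, all within the control range (log2 -0.012, SE 0.093, adjusted p = 0.972). In YSCCC INHBA went from 7.63, 6.13 and 0.935 to 11.9, 6.24 and 1.36 CPM, higher in 3 of 3 pairs (log2 0.38, SE 0.19, adjusted p = 0.255), and in KKU-100 the difference was 0.13 (SE 0.22, adjusted p = 0.813).

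The SMADs did not pass in any line. SMAD3 had log2 differences of -0.073 (SE 0.080) in HuCCT1, -0.098 (SE 0.093) in YSCCC and 0.045 (SE 0.13) in KKU-100. Its hairpin libraries stood at 381, 369 and 389 CPM, 168, 158 and 176 CPM and 95.7, 121 and 107 CPM in those lines. SMAD7 went from 3.28, 8.31 and 7.61 to 8.81, 10.4 and 11.1 CPM in KKU-100, where every hairpin library was above every control (log2 0.72, SE 0.24, adjusted p = 0.216). Most of that gap came from replicate 1 (pair log2 1.41, 0.32 and 0.54). In HuCCT1 and YSCCC SMAD7 differed by -0.012 (SE 0.090) and 0.053 (SE 0.16), with overlapping arms.

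Some markers of cell types and state genes also passed the hairpin test. In YSCCC the share to set beside each count is the 8.25% of all genes that passed. In YSCCC 2 of the 5 stromal markers tested fell, COL3A1 (-1.17 on the log2 scale) and THY1 (-0.89), and the 8 stromal markers summed to 61.9 to 182 CPM with the control and 39.4 to 243 CPM with the RNF213 hairpin. LUM, which made up most of each YSCCC stromal sum, was at 117, 164 and 42.7 and 205, 234 and 29.6 CPM in those arms, with replicate 3 lowest in both. Of the endothelial markers 2 of 3 tested rose in YSCCC, PECAM1 (1.12) and CDH5 (0.58), with sums of 14.9 to 76.7 and 28.6 to 96.9 CPM. Of the biliary markers 1 of 8 rose, MUC1 (0.44), and 1 fell, CDH1 (-0.57), with sums of 5201 to 8941 and 4953 to 8903 CPM. SERPINA1, the single hepatocyte marker tested, rose (0.99), with sums over the 7 markers of 2.79 to 7.26 and 5.01 to 13.6 CPM. Of the immune markers 1 of 5 fell, CSF1R (-1.12), with sums of 74.6 to 83.7 and 72.9 to 88.7 CPM. IFI44L (0.93) rose among the 12 interferon genes and HERPUD1 (-0.54) fell among the 12 stress genes. Each is 8.33% of its list, a share near that of all genes.

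In HuCCT1 no marker or state gene passed with edgeR. In KKU-100 the markers did not pass, while IFIT2 (-1.41) and RSAD2 (-1.24) fell among the 12 interferon genes (16.7%, against 0.443% of all genes). Those 12 genes summed to 8074 to 11499 CPM with the control and 6297 to 8232 CPM with the RNF213 hairpin. The KKU-100 stromal sum was 15.9 to 27.9 and 19.8 to 50.1 CPM in the same arms. For the mean over lines MUC1 (0.43), SERPINA1 (0.48), LUM (1.24) and LYZ (1.24) were higher, and IFIT2 (-0.78), DDIT3 (-0.40) and SESN2 (-0.37) lower. In that test 2.9% of all genes passed. LUM and LYZ passed in no single line, and in HuCCT1 all 8 stromal markers together summed to 5.26 to 19.6 CPM. Hepatocyte sums reached 286 CPM in HuCCT1 and immune sums 116 CPM in KKU-100, while ALB averaged 0.112 CPM or less and PTPRC 1.21 CPM or less in each of the 6 groups. The part of these genes in the receptor and ligand changes was not tested.

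The rest of the pathway was followed through 91 other genes in 8 lists: ligands, receptors, SMADs, latency and activation, secreted antagonists, intracellular regulators, TGF-beta targets and BMP targets. In YSCCC 4 of the 82 tested rose and 9 fell, or 15.9% against 8.25% of all genes, with a median log2 difference of -0.05 against 0.01 over all genes. In HuCCT1 and KKU-100 0 of 79 passed with edgeR in each, with 17 and 16 at an unadjusted p under 0.05 and 1 and 7 called by DESeq2. Leaving out 1 replicate gave up to 5 calls in HuCCT1 and up to 8 in KKU-100. Without the replicate block no listed gene passed in YSCCC either, and without replicate 1 or 2 the YSCCC count was 5 or 7.

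Of the 13 TGF-beta target genes tested in YSCCC 1 rose and 3 fell, or 30.8% against 8.25% of all genes. The matrix gene FN1, fibronectin, went from 571, 499 and 411 to 239, 224 and 152 CPM, with no overlap (log2 -1.29, adjusted p = 2.64e-05, and -1.21 without replicate 3). COL1A1, a collagen chain, also fell (log2 -0.61, adjusted p = 0.0298) and lost its call without replicate 1 (adjusted p = 0.182), 2 (0.0616) or 3 (0.075). CCN2, a matricellular protein that is also a YAP target, went the other way, from 9.02, 19.2 and 20.9 to 31.9, 76.1 and 30.6 CPM (log2 1.44, adjusted p = 0.00175, and 1.91 without replicate 3). Of the BMP targets 1 of 10 fell, a share near the 8.25% of all genes. This gene, ID4 (log2 -0.37, adjusted p = 0.0392), missed the threshold without replicate 1 (adjusted p = 0.0817), 2 (0.187) or 3 (0.0763).

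Of the 14 other ligands 1 rose and 2 fell in YSCCC, or 21.4% against 8.25% of all genes. INHBE, an activin subunit that is also an ATF4 target, went from 2.79, 1.37 and 71.8 to 0.388, 0.378 and 19.1 CPM (log2 -2.06, adjusted p = 0.000111), and replicate 3 was far above the others in both arms. Without replicate 3 the change was -2.38 (adjusted p = 4.23e-05). BMP5 rose from 1.97, 1.48 and 0.324 to 5.36, 3.63 and 0.574 CPM (log2 1.28, adjusted p = 0.00738), lost without replicate 1 (adjusted p = 0.153) or 2 (0.0568). BMP1, which despite its name is a procollagen protease, fell (log2 -0.58, adjusted p = 0.0114), also lost without replicate 1 (0.184) or 2 (0.0759). Among 12 receptors 1 fell, again a share near that of all genes: the co-receptor endoglin (ENG), from 83.1, 82.7 and 52.4 to 55.3, 54.1 and 36.5 CPM (log2 -0.58, adjusted p = 0.00309), lost without replicate 1 (0.0586) and -0.60 without replicate 3. None of the 6 SMADs and none of the 13 intracellular regulators passed.

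Of the 9 latency and activation genes tested in YSCCC 1 rose and 2 fell, or 33.3% against 8.25% of all genes. THBS1, thrombospondin 1, which can release latent TGF-beta, rose from 263, 289.8 and 79.3 to 360.4, 333 and 124 CPM (log2 0.43, adjusted p = 0.0171), lost without replicate 1 (adjusted p = 0.145). LTBP1, which tethers latent ligand to the matrix, went from 100.4, 64.4 and 38.4 to 41.3, 42.5 and 35.5 CPM (log2 -0.67, adjusted p = 0.0251), and FURIN, the protease that cuts the precursor, fell as well (log2 -0.40, adjusted p = 0.0243). Both lost their call without replicate 1 (0.302 and 0.192) or 2 (0.0944 and 0.151). Of 8 antagonists 1 rose, also a share near that of all genes: SOSTDC1 (log2 1.18, adjusted p = 0.00394), lost without replicate 1 (0.0567).

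**Figure D4:**
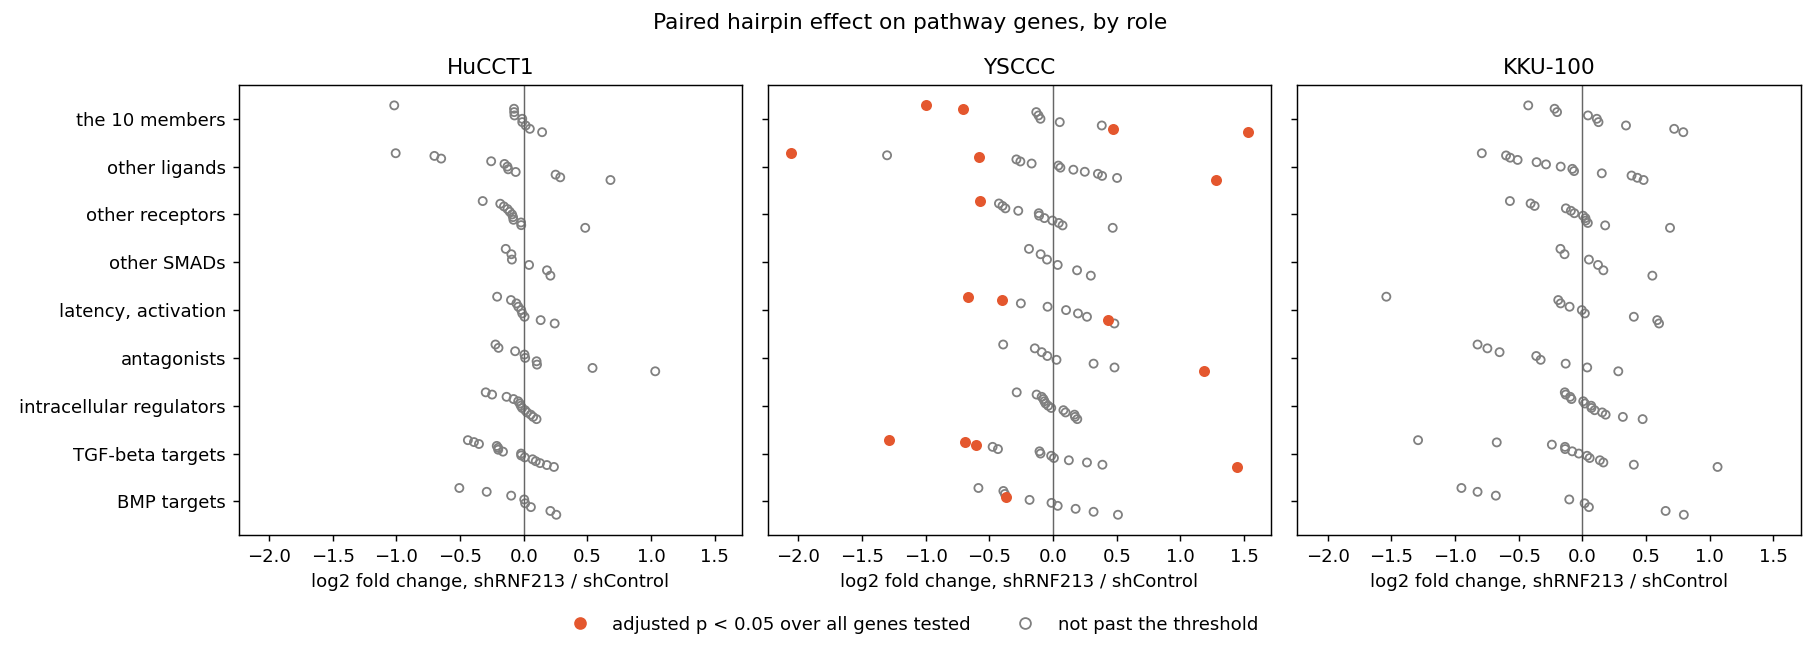
Log2 difference of RNF213 hairpin minus control hairpin for the 10 members (top row) and the other pathway genes by role in each line, 1 point per gene tested, with filled points for an adjusted p under 0.05. The passing points are all in YSCCC, with 2 members and 4 other genes above 0 and 2 members and 9 other genes below.

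For the mean over the 3 lines, 6 of 88 other pathway genes passed, 2 higher and 4 lower, or 6.82% against 2.9% of all genes. Among them were SMAD1 (0.24) and LTBP3 (0.31), higher, and INHBE (-1.05), FN1 (-0.56) and ID3 (-0.54), lower, on the log2 scale. Without replicate number 1 or 3 the count was 2. The response differed between YSCCC and KKU-100 for 4 of 88, or 4.55% against 2.63% of all genes, with CCN2 (1.41) higher in YSCCC and INHBE (-1.995), BMP1 (-0.97) and ITGAV (-0.84) lower, and without replicate 1 the count was 1. None of the 88 passed with edgeR in the other pair of contrasts, where 17 (KKU-100 minus HuCCT1) and 14 (YSCCC minus HuCCT1) had an unadjusted p under 0.05 and DESeq2 called 3 and 2.

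The members that passed in YSCCC were set beside 11749 genes by the correlation of log2 CPM over 18 libraries. Each library was taken as its deviation from its line's mean. The members, the other pathway genes, the markers, the state genes and RNF213 were left out of the 11749. Closer matches among those genes were therefore not sought. Libraries share line, arm and replicate, so these values describe likeness only. TGFBR3 was most like ESYT2 (Pearson r 0.940, Spearman rho 0.862, r 0.890 without the 2 most distant libraries) and GCNT4 (Pearson r 0.918, Spearman rho 0.936, r 0.833). TGFBR1 was most like the histone gene HIST1H2BK (Pearson r 0.940, Spearman rho 0.884, r 0.887), whose near-identical copies make its counts uncertain, and VEZT (Pearson r 0.906, Spearman rho 0.713, r 0.767). TGFB1 was most like CREBL2 (Pearson r 0.872, Spearman rho 0.870, r 0.816) and RAB3D (Pearson r 0.824, Spearman rho 0.818, r 0.827). BMP3 was most like PCED1B (Pearson r 0.829, Spearman rho 0.864, r 0.791) and AMIGO2 (Pearson r 0.821, Spearman rho 0.802, r 0.689).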

How the data were processed

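Each deposited file holds 1 of the 18 libraries (TruSeq standard mRNA, 750 ng of RNA) with 36601 gene IDs. Per the submitters' processing notes, reads were handled on GRCh38 with STAR 2.5.1b, HTSeq 0.6.1p1, StringTie 2.1.6, DESeq2 1.34.0, Picard 1.139 and FastQC 0.11.9. Settings and strand mode: not given in the sources used here. The authors deposited, per the file headers, raw read counts, FPKM, TPM, a coverage signal and counts scaled with DESeq2. Raw counts entered the tests, deposited TPM ordered genes within a line, and FPKM and signal columns were not used for results.

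Counts were tested in edgeR 4.0.16 (TMM factors, quasi-likelihood F test, filterByExpr with minimum count 10 and total 15, R 4.3.3). Each line was fitted on its 6 libraries with replicate number as a block, and 1 fit of 18 libraries with 9 pair terms and 3 hairpin terms gave the mean effect and the differences between lines. The 9 control libraries were fitted without a block for levels. P-values are two-sided and adjusted over all genes tested (Benjamini-Hochberg, threshold 0.05), and SE is the log2 change divided by the root of F. Log2 CPM used a prior count of 1. Alternatives were DESeq2 1.42.0, RLE factors, no filter, no block, a fit of all libraries and each replicate left out. The fits were also run on simulated counts with the same spread for every gene and, in the hairpin fits, a shared level within pairs. Such counts assume the pairing and do not test it.

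The series' design text calls the replicates biological and does not say what links equal numbers. Same-numbered control and hairpin libraries deviated together from their groups' means (HuCCT1 r 0.787, 0.706 and 0.763, YSCCC r 0.818, 0.723 and 0.902, KKU-100 r 0.730, 0.599 and 0.404), over 10495, 10568 and 10122 genes. Some libraries of different number also correlated, up to 0.656 in YSCCC. Libraries were paired by their shared numbers, and these values are a check of that choice. Each arm was centred on its own mean, so the correlations of like and unlike numbers are not independent of each other.

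Members and lists were chosen with earlier results of these data known. Named are all members and, per list and line, up to 4 called pathway genes by size of change with a mean of at least 1 CPM. A gene this rule selects is not reported here. Likeness was taken for members called in a line, over genes of at least 5 CPM outside all lists used here. Overlapping exons come from GENCODE 29, and promoter windows from RefSeq.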

Additional observations from a re-analysis of the deposited data

Results flagged for a closer look

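The response of TGFBR2, the type II TGF-beta receptor, to the RNF213 hairpin differed between YSCCC and KKU-100 by -0.91 on the log2 scale (SE 0.19, adjusted p = 0.0229, edgeR quasi-likelihood test of the difference over all 18 libraries). The 3 KKU-100 pairs gave log2 ratios of 1.19, 0.69 and 0.56, and the 3 YSCCC pairs gave -0.19, -0.35 and 0.22.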

How the results depend on the processing

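Without the replicate block, 0 members passed in YSCCC (4 with it), 0 for the mean effect (3 with it) and 0 for YSCCC minus KKU-100 (1 with it), and no other count of members moved by over 1.5 times with or without a block. DESeq2 or no low-count filter each moved the count from 0 to 1 in HuCCT1, KKU-100, YSCCC minus HuCCT1 and KKU-100 minus HuCCT1, and 1 fit of all 18 libraries gave 1 in HuCCT1 and 2 in KKU-100 (TGFBR2 and SMAD7, whose adjusted p was 0.0451). Leaving out each replicate number gave 0 to 1 members in HuCCT1 and in KKU-100, 1 to 2 for the mean effect and 0 to 1 for YSCCC minus KKU-100. TGFBR3, BMP3 and TGFBR1 in YSCCC each kept their direction in 8 of 8 alternatives and their call in 7 of 8, all but the fit without the block. RLE size factors in place of TMM changed no count of members by over 1.5 times.

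Over all genes the calls moved more. In YSCCC 1397 became 0 without the block, 2160 without the filter and 782 in the fit of all libraries, in HuCCT1 22 became 0, 117 and 8 (116 with DESeq2), and in KKU-100 66 became 2, 193 and 846 (418 with DESeq2). Without 1 replicate the ranges were 313 to 1856, 18 to 335 and 9 to 420. The mean effect moved from 555 to 28 without the block, 907 without the filter and 1054 with DESeq2. For YSCCC minus HuCCT1 9 became 0, 125 and 154, for KKU-100 minus HuCCT1 45 became 0, 273 and 303, and for YSCCC minus KKU-100 503 became 0, 894 and 1060, in the same order of settings. Leaving out 1 replicate number gave 55 to 355, 0 to 8, 0 to 22 and 35 to 320 in these 4. Of the other pathway genes, 13 in YSCCC became 0, 21 and 8 (without the block, without the filter, all libraries), 6 for the mean effect became 0, 11 and 10 (DESeq2 last), and 4 for YSCCC minus KKU-100 became 0 without the block and 7 without the filter.

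Differences that were outside the threshold changed sign without 1 replicate. Over those fits the lowest and highest log2 values were -0.16 to 0.26 for TGFB2, -0.12 to 0.12 for BMP4, -0.10 to 0.083 for INHBA, -0.17 to 0.041 for TGFBR2 and -0.046 to 0.035 for SMAD7 in HuCCT1, and -0.050 to 0.24 for SMAD7 in YSCCC. In KKU-100 they were -0.42 to 0.43 for TGFB2, -0.36 to 0.061 for BMP4, -0.0012 to 0.40 for INHBA, -0.33 to 0.016 for TGFBR1 and -0.096 to 0.14 for SMAD3. Between control levels they were -0.30 to 0.22 for TGFB1 (KKU-100 minus HuCCT1) and -1.06 to 0.21 for RNF213 (YSCCC minus HuCCT1). The cause of these shifts was not tested. BMP3 in HuCCT1 and KKU-100 and TGFB2 in YSCCC are limited by counts of 15 or fewer per library.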
